A study of Mus musculus with 48 samples.

Results

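The genes of the cytosolic ribosomal proteins were examined gene by gene in the blood and the medial prefrontal cortex (mPFC) of mice. The members were all non-control probes of the mouse array whose gene name is Rpl or Rps followed by a number, or Rplp0, Rplp1, Rplp2 or Rpsa, without the Rps6k kinases. The rule gave 191 probes of 87 genes, among 55681 probes with 34844 gene names. Of these genes 55 encode proteins of the large subunit or carry their names (123 probes) and 32 those of the small subunit (68 probes). All mice were female C57BL/6J mice of 17 weeks of age. Control mice underwent a sham operation and no stress, CUMS mice a sham operation and chronic ultra-mild stress, OVX mice bilateral ovariectomy and no stress, and OVX+CUMS mice both. Each of the 4 groups had 6 mice, and the blood and the mPFC of the same 24 mice were hybridized to 48 one-colour Agilent arrays. Ovariectomy removes all ovarian hormones together, and no group received a hormone back. The blood RNA came from the pellet of centrifuged whole blood, so that red cells, white cells and platelets were lysed together.

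The cytosolic ribosome consists of ribosomal RNAs and a nearly fixed set of proteins, most of which are present in a single copy in each particle. The small subunit decodes the mRNA, the large subunit forms the peptide bond, and the stalk of the large subunit, formed by Rplp0, Rplp1 and Rplp2, recruits the elongation factors. The mRNAs of these proteins share a tract of pyrimidines at their 5′ end (the 5′ TOP motif), through which their translation is controlled together, and some members have paralogs with expression restricted to certain tissues.

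The level used throughout is the log2 of the processed signal of a probe minus the log2 of the 75th percentile signal (P75) of its array. A value of 0 thus equals the P75 of the array, and levels of different probes are not comparable with each other, since each probe has its own binding strength. A probe was tested in a tissue if it was well above background on all 24 arrays and had a signal above 50 on at least 2 of them. In blood 179 probes of 83 genes passed, and in the mPFC 187 probes of 84 genes. The P75 signal ranged from 54.9 to 192 in blood and from 572 to 689 in the mPFC, so that blood arrays were dimmer and more variable. In blood it ranged from 81.3 to 132 in control and from 54.9 to 105 in CUMS mice. With ovariectomy it ranged from 110 to 192 without stress and from 103 to 144 with stress. Array brightness in blood thus differed between the groups, and its part in the effects was not tested. No member spot was saturated. The spread between mice of a group was smaller in the mPFC, with a median SD over the member probes of 0.0797 against 0.138 in blood (all detected probes, 0.147 and 0.283). The tissue labels were checked with marker genes. In blood, 8 of 9 erythroid, 9 of 10 neutrophil and all 9 B cell markers on the array were detected. In the mPFC all 8 neuron markers were detected, and of 3 choroid plexus markers 2 were detected and Ttr was not (summed level from -3.17 to -1.79 over the 4 groups, none of the markers called). Each tissue was run on 3 slides of 8 arrays. Slide 1 held all 6 control and 2 CUMS mice, slide 2 held 4 CUMS and 4 OVX mice, and slide 3 held 2 OVX and all 6 OVX+CUMS mice. OVX mice therefore never shared a slide with control mice, and the surgery and the slide cannot be told apart except through the few groups that span a pair of slides, whereas CUMS could be compared at the same surgery within slides 1 and 3, and against OVX within slide 2. The sample titles give tissue, group and a number, and the same group and number in blood and mPFC were taken as the same mouse. The p-values measure the spread between mice.

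Probe sequences matter here, because ribosomal protein genes have many processed pseudogene copies. The array text files place 190 of the 191 probes in the mouse genome build mm9, and 25 probes of 15 genes lie on another chromosome than the gene they are named for. Within genes, 171 pairs of probes exist, of which 24 overlap by at least 30 bases, and 21 of these differ in at least 1 base within the overlap. The Rps15 probes are shown because they differed from each other in their response in blood, the Rpl7a and Rps29 probes because probes that overlap differ from each other in a few bases. Both Rps15 probes are placed on the plus strand, the dimmer at chr10:79755554-79756394 across a gap and the brighter at chr10:79756716-79756775 (mm9). Of the Rpl7a probes a common stretch of 30 bases is printed, with the bases that differ from probe 1 in capitals. Probes 1 and 2 are placed at chr2:26768759-26768818 and probe 3 at chr2:26768730-26768789 (mm9, plus strand). Of the Rps29 probes the shared 42 bases are printed, with the bases that differ from probe 1 in capitals. Both are placed on the minus strand of chromosome 2, at chr2:172335021-172335079 and chr2:172335003-172335062 (mm9), while RefSeq lists the gene itself on chromosome 12.
Rps15 dimmer probe: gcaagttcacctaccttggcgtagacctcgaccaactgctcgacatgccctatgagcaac
Rps15 brighter probe: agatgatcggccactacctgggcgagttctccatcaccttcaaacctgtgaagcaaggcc
Rpl7a probe 1: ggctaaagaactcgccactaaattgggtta
Rpl7a probe 2: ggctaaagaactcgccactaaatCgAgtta
Rpl7a probe 3: ggctaaagaactcAccactaaCttgggtta
Rps29 probe 1: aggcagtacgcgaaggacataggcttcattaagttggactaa
Rps29 probe 2: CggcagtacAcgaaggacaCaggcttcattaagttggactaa

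The family as a whole was described by the median level over its genes on each array, taking the brightest probe of each gene. In blood the lowest, median and highest of the 6 mice were 7.36, 7.44 and 7.57 in control mice, 7.04, 7.27 and 7.52 with CUMS, 7.37, 7.51 and 7.61 with OVX and 7.03, 7.21 and 7.27 with OVX+CUMS. The OVX+CUMS mice lay below all unstressed mice, whereas the CUMS mice overlapped with them. In the mPFC the same values were 6.45, 6.50 and 6.58 in control mice, 6.44, 6.51 and 6.55 with CUMS, 6.49, 6.60 and 6.60 with OVX and 6.47, 6.57 and 6.69 with OVX+CUMS. All 4 groups overlapped there.

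**Figure D1:**
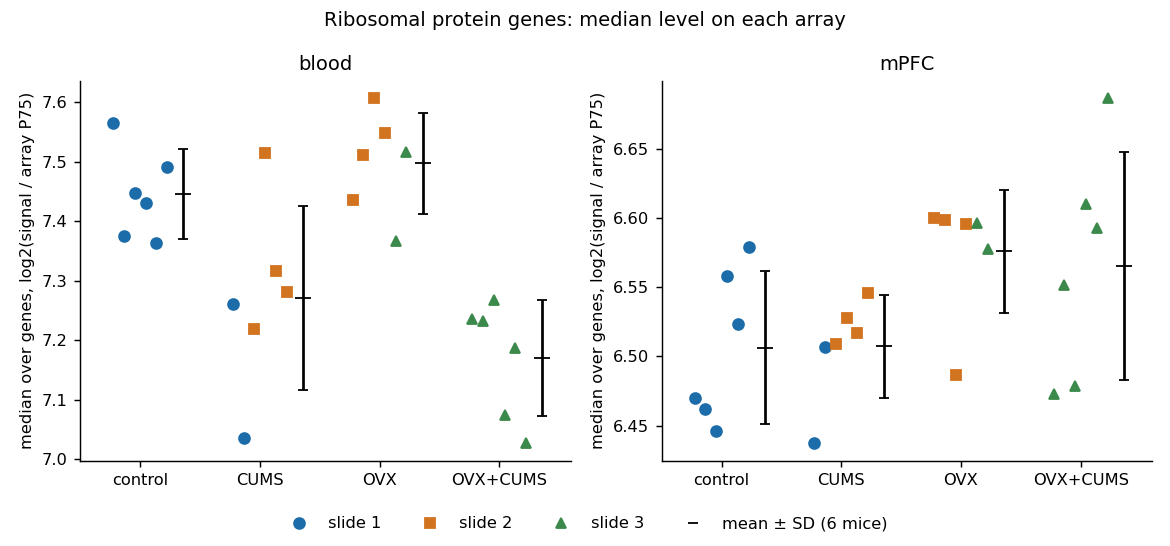
Median log2 level over the ribosomal protein genes (brightest probe of each gene, relative to the array P75) on each of the 24 blood and 24 mPFC arrays. Symbols and colours give the slide, and black bars the mean ± SD of the 6 mice of a group. In blood the OVX+CUMS mice, at 7.03 to 7.27, lie below all control and OVX mice.

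Most ribosomal protein transcripts were lower with CUMS in blood. Of the 179 probes 116 fell and 4 rose (limma with Benjamini-Hochberg adjustment over all 20767 detected probes at 0.05, main effect of CUMS over both surgeries), while 29.4% of all detected probes fell and 19.1% rose. By the brightest probe, 53 genes fell, 1 rose and 29 did not pass the test, and 77 of the 83 lay below 0. The median effect of the member probes was -0.21 on the log2 scale against -0.03 over all detected probes. Large and small subunit genes moved alike in number, with 32 of 51 and 21 of 32 genes lower.

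The lower level was also seen between mice of the same surgery within slides 1 and 3. In slide 1 the median difference over the genes between CUMS and control mice was -0.28 (73 of 83 below 0), and in slide 3 that between OVX+CUMS and OVX mice was -0.21 (74 of 83 below 0). Of the 2 CUMS mice on slide 1, replicate 2 had the dimmest blood array (P75 54.9) with the fewest probes well above background (23578). Its family median was 7.04, against 7.26 for replicate 1 and 7.36 to 7.57 in the control mice. With 2 mice in the smaller group of either slide, none of the member probes passed the adjusted test there, and at an unadjusted p under 0.05 limma gave 59 lower and 1 higher in slide 1 (16.7% and 14.1% of all detected probes) and 56 lower and 2 higher in slide 3 (17.3% and 19.4%). In slide 2 the mice differed in surgery as well as stress. There the median difference between CUMS and OVX mice was -0.24, and of 179 member probes 53 were lower and 8 higher in CUMS mice, against 27.9% and 24.4% of all detected probes, so that the lower share was near the background. With the slide as a block, 106 probes fell and 3 rose. Scaling by the spike-in probes moved the median of all detected probes to -0.33 and that of the members to -0.51. Markers of B cells, T cells and red cells moved as well. With CUMS 7 of 9 B cell and 6 of 11 detected T cell markers fell, and 6 of 8 detected erythroid markers rose. Other cell types moved less, with 2 of 5 detected NK cell and 1 of 6 monocyte markers lower. Of 9 detected neutrophil markers 1 rose and 0 fell, and 0 of 7 platelet markers were called. The summed B cell marker level ranged from 7.83 to 8.34 in control mice and from 7.26 to 8.05 in CUMS mice. With ovariectomy it ranged from 8.46 to 8.70 without stress and from 7.23 to 8.46 with stress. The summed T cell marker level ranged from 7.39 to 7.72 in control and from 7.13 to 7.46 in CUMS mice, against 7.25 to 7.47 in OVX and 6.66 to 7.29 in OVX+CUMS mice. The part of these cell types in the fall was not tested. In RNA of whole blood, fewer cells of a type and less RNA per cell cannot be told apart.

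Rpl22l1, the paralog of the RNA-binding large subunit protein Rpl22, showed the greatest fall among the called genes. Its lowest, median and highest levels were 4.23, 4.37 and 4.74 in control mice, 3.39, 3.81 and 4.17 with CUMS, 4.30, 4.49 and 4.59 with OVX and 3.76, 4.09 and 4.33 with OVX+CUMS. All CUMS mice lay below all control mice. The CUMS effect was -0.51 ± 0.09 (SE; limma, adjusted p = 0.00093). Rpl3, a protein of the peptidyl transferase centre, had levels of 6.56, 6.61 and 6.96 in control mice, 5.83, 6.30 and 6.63 with CUMS, 6.69, 6.84 and 6.98 with OVX and 6.11, 6.27 and 6.52 with OVX+CUMS. CUMS and control mice overlapped slightly, and OVX+CUMS mice lay below all OVX mice. Its effect was -0.49 ± 0.08 (adjusted p = 0.00073, limma), and its other probe gave -0.44 ± 0.08. Rpl22p, which RefSeq lists as Gm13196, fell on both of its probes, by 0.42 ± 0.11 on the brighter (adjusted p = 0.0038, limma).

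Rpl5 and Rpl11 carry the 5S ribosomal RNA into the large subunit and, when free, bind the p53 regulator Mdm2. Rpl5 levels were 5.59, 5.80 and 6.07 in control mice, 4.96, 5.28 and 5.65 with CUMS, 5.55, 5.75 and 5.89 with OVX and 5.28, 5.53 and 5.82 with OVX+CUMS. The CUMS mice overlapped with the low end of the control range, and the CUMS effect was -0.39 ± 0.09 (adjusted p = 0.0022, limma). All 3 detected Rpl11 probes fell, with effects of -0.34 ± 0.07, -0.36 ± 0.07 and -0.27 ± 0.08. Genes whose mutations cause Diamond-Blackfan anaemia, an inherited failure of red cell production, fell in 6 of 9 cases with a median effect of -0.27, and none rose, beside 53 of 83 genes for the family. Rpsa, the laminin receptor precursor of the small subunit, fell by 0.22 ± 0.07 (adjusted p = 0.0115, limma).

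No stalk gene was called with CUMS. Rplp0, which anchors the stalk, had levels of 9.46, 9.54 and 9.73 in control mice, 9.51, 9.86 and 10.02 with CUMS, 9.20, 9.35 and 9.59 with OVX and 9.24, 9.41 and 9.58 with OVX+CUMS. CUMS mice reached above all control mice, but the effect of 0.16 ± 0.07 did not pass the test (adjusted p = 0.0597, limma). Rplp1 gave -0.06 ± 0.06 and Rplp2 0.06 ± 0.06, neither called. The single gene that rose was Rpl41, which encodes the smallest ribosomal protein. Its levels were 9.67, 9.83 and 10.03 in control mice, 9.79, 10.25 and 10.63 with CUMS, 9.27, 9.57 and 9.82 with OVX and 9.51, 9.66 and 9.79 with OVX+CUMS, and its effect was 0.26 ± 0.09 (adjusted p = 0.0225, limma). Scaled by the spike-in probes, this effect was -0.04 and no longer called.

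To find the subunits that departed from the family, the family median of each array was subtracted before the same test. Relative to the family, 39 probes rose and 10 fell with CUMS, where 40.0% of all detected probes rose and 2.51% fell. The subtraction centres the family on every array and moved the median of all detected probes from -0.03 to 0.22, so that these shares are not comparable with those of the members, here and in the other comparisons relative to the family. The normexp background correction gave 32 and 22. Rpl41 (0.51), Rps15 (0.44), a small subunit protein near the decoding site, and Rplp0 (0.41) departed furthest upward, and Rplp2 (0.31) and Rplp1 (0.19) were called in the same direction. Rpl22l1 (-0.26), Rpl3 (-0.24) and Rpl18 (-0.15) departed furthest downward among the called genes. In blood the CUMS effect of a member probe was related to its level, with a Spearman's rho of 0.35 over the 179 probes, against -0.10 over all detected probes. Member probes share the arrays and their depth of signal, so that this is a description only. Among the 79 probes with a level of 7 or more the median effect was -0.16 and 41 fell, and among the 74 between 5 and 7 it was -0.26 and 58 fell. Of all 601 detected probes with a level of 7 or more, 134 fell and 156 rose with a median of 0.06.

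**Figure D2:**
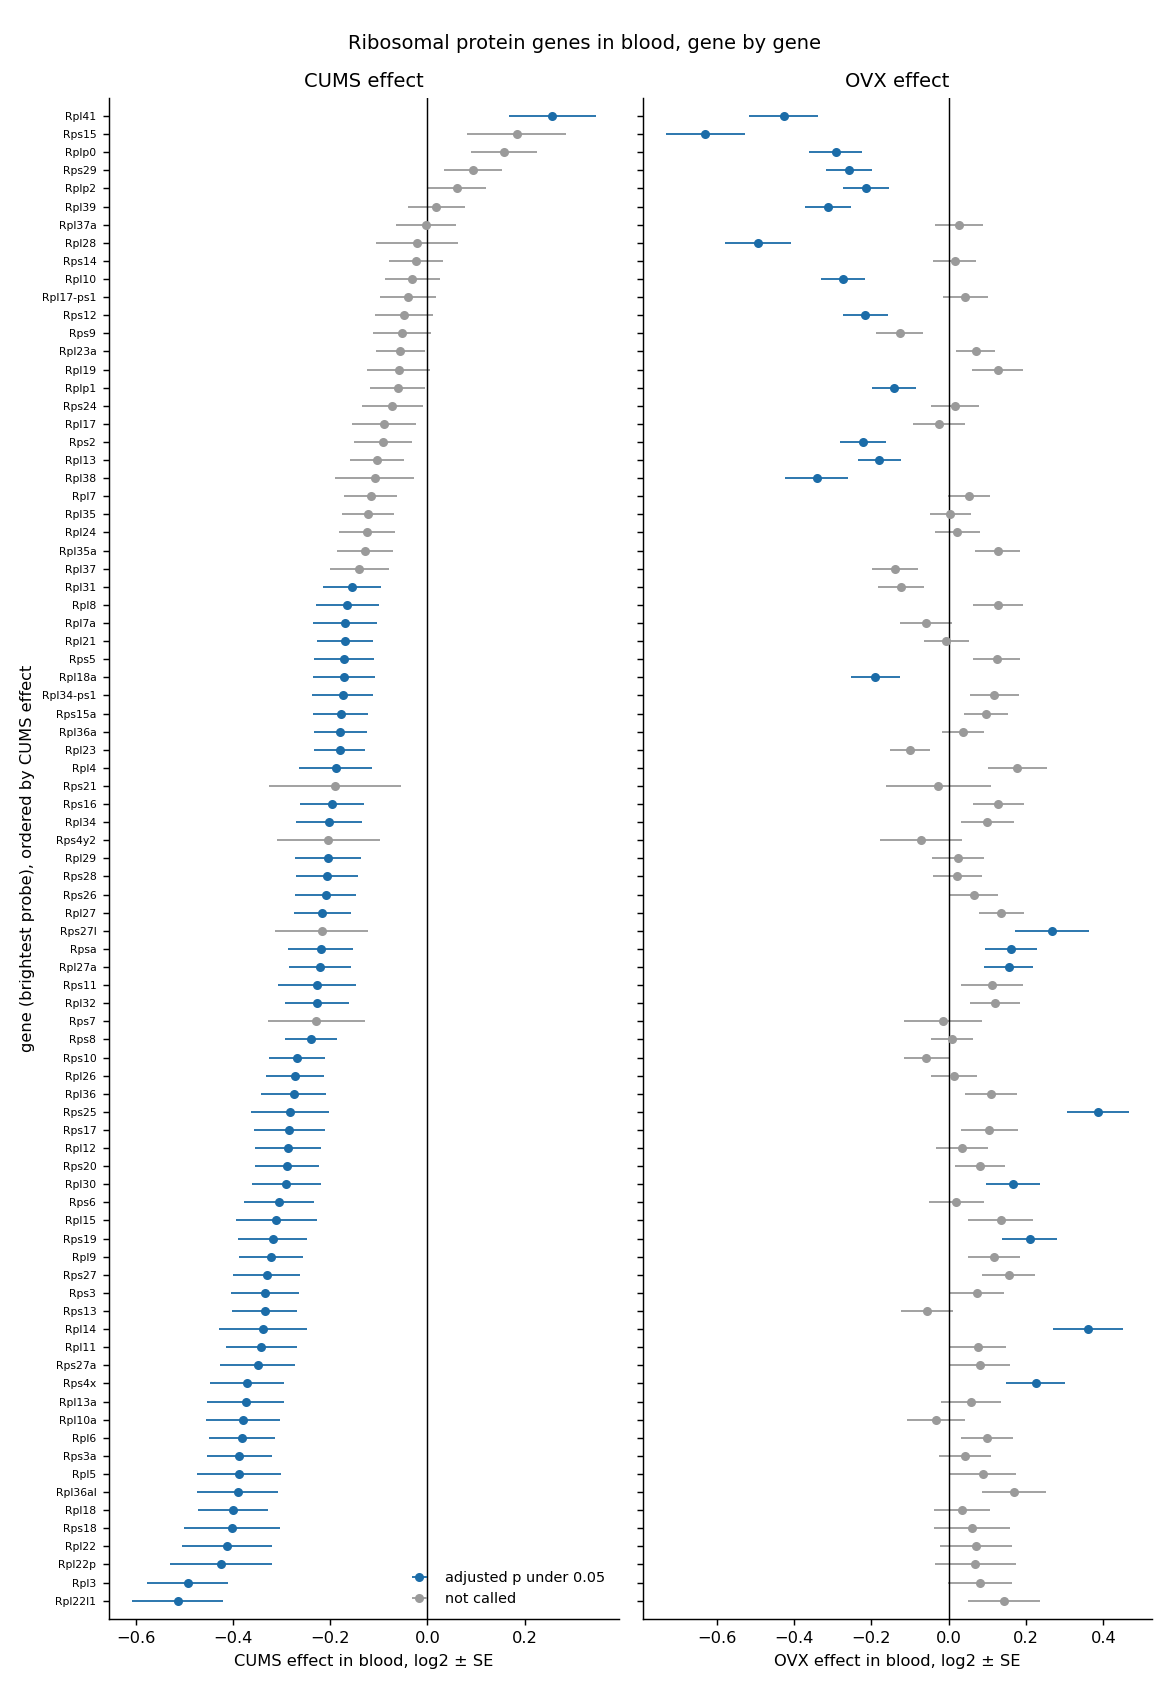
CUMS effect (left) and OVX effect (right) in blood for the 83 detected ribosomal protein genes, as log2 differences ± SE, with genes in the order of the CUMS effect. The probe plotted for each gene is the one brightest in blood. Blue points have an adjusted p under 0.05. For CUMS 53 genes lie to the left of 0 and are called, and for OVX 14 fell and 8 rose.

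With OVX, the family was called in both directions in blood. Of the 179 probes 28 rose and 30 fell, against 27.4% and 27.7% of all detected probes, so that both shares were below the background. By the brightest probe, 8 genes rose and 14 fell. This split depended on the scaling, with 54 rising and 27 falling when the percentile was taken over detected probes only, 103 and 11 with the normexp correction, 96 and 7 with quantile normalization and 120 and 1 with the spike-in probes, which moved the median of all detected probes from 0.04 to 0.39. With the slide as a block no member probe was called by limma, and 4 had an unadjusted p under 0.05. The directions below are therefore relative to the array percentile.

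Rps15 showed the largest fall of a called gene. The levels of its brighter probe were 8.88, 9.02 and 9.47 in control mice, 8.75, 9.07 and 9.91 with CUMS, 8.15, 8.35 and 8.54 with OVX and 8.50, 8.60 and 8.81 with OVX+CUMS. Both ovariectomized groups lay below the control mice, and the highest OVX+CUMS mouse only just exceeded the lowest CUMS mouse. The OVX effect was -0.63 ± 0.10 (adjusted p = 0.00013, limma). The dimmer probe behaved differently, with levels of 5.12, 5.37 and 5.52 in control mice, 4.69, 5.06 and 5.35 with CUMS, 5.46, 5.50 and 5.60 with OVX and 5.02, 5.14 and 5.43 with OVX+CUMS. Its OVX effect was 0.16 ± 0.07 (adjusted p = 0.0695), and it fell with CUMS by 0.31 ± 0.07 (adjusted p = 0.003, limma), whereas the brighter probe gave 0.18 ± 0.10 and was not called. Tested against each other, the brighter probe differed from the dimmer by -0.79 ± 0.15 with OVX (adjusted p = 0.00066, limma). Both probes have a GC content of 55%.

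Other genes fell with OVX. Rpl28, a large subunit protein, had levels of 8.52, 8.67 and 8.74 in control mice, 8.12, 8.45 and 9.12 with CUMS, 7.76, 8.07 and 8.11 with OVX and 8.01, 8.14 and 8.25 with OVX+CUMS by its brighter probe. All OVX mice lay below all control mice, and the effect was -0.49 ± 0.09 (adjusted p = 0.0002, limma). Its other probe gave -0.06 ± 0.06 and was not called. Rps29, a small zinc-binding protein of the small subunit, fell on all 3 of its probes. Probe 1 of the sequences above gave -0.26 ± 0.06 and probe 2, which differs from it in 3 of the 42 shared bases, -0.43 ± 0.07. Levels of probe 2 were 9.19, 9.26 and 9.39 in control mice, 9.16, 9.36 and 9.65 with CUMS, 8.70, 8.85 and 9.10 with OVX and 8.82, 8.87 and 8.99 with OVX+CUMS. Every OVX and OVX+CUMS mouse lay below every control and CUMS mouse. Rpl41 fell by 0.43 ± 0.09 (adjusted p = 0.00071, limma).

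All 3 stalk genes fell with OVX relative to the array percentile. Rplp0 gave -0.29 ± 0.07, Rplp1 -0.14 ± 0.06 and Rplp2 -0.21 ± 0.06, and all 5 stalk probes were called, but each of the 3 turned to a positive value that was not called under quantile normalization (0.07, 0.09 and 0.10) and with the spike-in probes (0.06, 0.21 and 0.13), and Rplp1 also with the normexp correction (0.01). The stalk therefore had no direction that held over the scalings.

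Rps25, Rpl14 and Rps27l rose most with OVX. Rps25, a small subunit protein used by some internal ribosome entry sites, had levels of 5.90, 6.04 and 6.29 in control mice, 5.23, 5.70 and 6.15 with CUMS, 6.26, 6.32 and 6.60 with OVX and 5.98, 6.20 and 6.27 with OVX+CUMS. The OVX effect was 0.39 ± 0.08 (adjusted p = 0.00069, limma). Rpl14, a large subunit protein, rose on all 3 of its probes, with 0.36 ± 0.09 for the brightest, whose levels were 6.54, 6.83 and 7.07 in control mice, 6.05, 6.57 and 7.09 with CUMS, 7.21, 7.29 and 7.37 with OVX and 6.77, 6.86 and 7.002 with OVX+CUMS. All OVX mice lay above all control mice. Rps27l, a paralog of Rps27 that p53 induces, rose by 0.27 ± 0.10 (adjusted p = 0.022, limma).

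Relative to the family median, 55 probes rose and 27 fell with OVX, against 32.8% and 23.6% of all detected probes. The normexp correction gave 25 and 35 and quantile normalization 31 and 29. The OVX effect of a member probe was related to its level in the opposite sense to the CUMS effect, with a Spearman's rho of -0.38 over the 179 probes, against -0.04 over all detected probes. Among member probes with a level of 7 or more, 24 fell and 6 rose with a median of 0.02, and among those below 5, 8 rose and 2 fell. Of all 601 detected probes with a level of 7 or more, 336 fell and 47 rose with a median of -0.27. Erythroid markers fell with OVX in 7 of 8 cases, and 5 of 9 B cell markers rose. Of the other detected markers, 2 of 11 for T cells, 2 of 5 for NK cells and 1 of 7 for platelets fell. For neutrophils 1 of 9 rose, and for monocytes 1 of 6. The summed erythroid level ranged from 13.5 to 14.3 in control and from 13.8 to 14.7 in CUMS mice, against 12.97 to 13.7 in OVX and 13.3 to 13.8 in OVX+CUMS mice. The part of these cell types in the OVX effects was not tested.

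The interaction asks whether CUMS acted differently in ovariectomized mice. In blood 2 member probes were called, both higher, against 1.29% of all detected probes higher and 0.130% lower. They were Rps21, a protein of the small subunit, with 1.15 ± 0.27 (adjusted p = 0.0437, limma), and probe 2 of Rpl7a, with 0.75 ± 0.18 (adjusted p = 0.0437). Both were lowest on slide 2. Rps21 levels in blood ranged from 6.09 to 6.56 on slide 1, from 5.17 to 5.60 on slide 2 and from 5.93 to 6.55 on slide 3, and with the slide as a block the interaction was -0.01. Within slides the groups also differed in places, since both CUMS mice on slide 1 lay just below the control mice (highest 6.223 against lowest 6.224) and the OVX+CUMS mice on slide 3 (5.93 to 6.36) lay below the OVX mice (6.41 to 6.55). The 2 CUMS mice on slide 1 and the 2 OVX mice on slide 3 thus lay apart from the 4 mice of their own group on slide 2. Rpl7a probe 2 lay between 4.48 and 4.75 on slide 2 and between 4.93 and 5.46 on the other slides. In all, 5 of the 179 member probes were lower on every array of slide 2 than on all other blood arrays, against 0.814% of all detected probes, and they also included a probe each of Rpl17, Rpl17-ps1 and Rps24. The sequence of Rpl7a probe 2 differs from probe 1 in 6 of its 60 bases, 2 of them within the stretch printed above. Probes 1 and 3 also lay mostly lower on slide 2 in blood, but overlapped with the other slides. Probe 1 ranged from 6.66 to 6.995 on slide 2 and from 6.935 to 7.33 on the other slides. For probe 3 the ranges were 5.95 to 6.34 and 6.22 to 6.65.

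**Figure D3:**
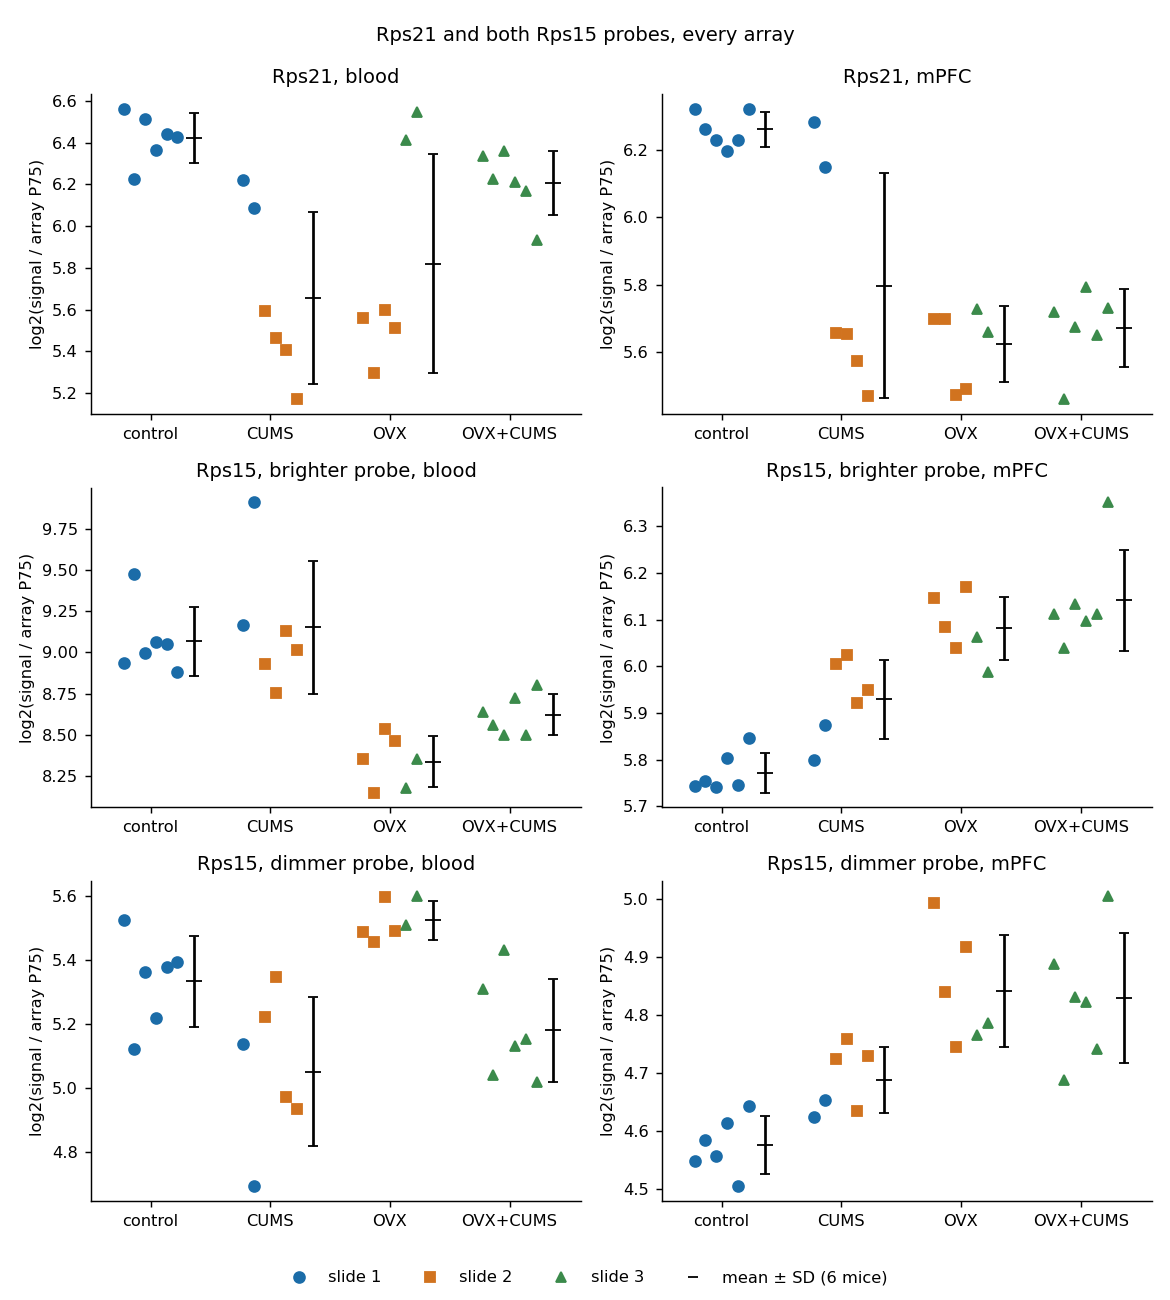
Log2 levels (relative to the array P75) of the Rps21 probe and of the brighter and dimmer Rps15 probes on every blood and mPFC array, with the slide given by symbol and colour and the mean ± SD of 6 mice in black. Rps21 in blood is low on slide 2 (5.17 to 5.60), which held CUMS and OVX mice, and in blood the brighter Rps15 probe is lower in both ovariectomized groups, which the dimmer probe is not.

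Probes of the same gene were compared directly by testing each probe against the mean of the other detected probes of its gene. In blood, 151 member probes could be tested. With OVX 23 rose and 20 fell relative to their sister probes, against 17.1% and 16.8% of all 7747 probes tested in this way, and with CUMS 5 rose and 8 fell, against 6.04% and 6.56%. The members were thus close to other genes in this respect. Of the 55 genes with at least 2 detected probes in blood, 31 had all their probes called in a single direction with CUMS, 11 had none called and 3 had probes called in both directions. With OVX these numbers were 9, 27 and 1.

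The 3 genes with CUMS calls in both directions were Rpl21, Rpl30 and Rpl6, and in each a dim probe rose. The dim Rpl30 probe had levels of 1.21, 1.30 and 1.39 in control mice, 1.42, 1.82 and 2.48 with CUMS, 1.15, 1.63 and 2.13 with OVX and 1.85, 2.09 and 2.30 with OVX+CUMS. Every CUMS mouse lay above every control mouse, and the effect was 0.52 ± 0.12 (adjusted p = 0.0031, limma), whereas the brightest probe gave -0.29 ± 0.07. For Rpl21 the dim probe rose by 0.53 ± 0.12 and the brightest fell by 0.17 ± 0.06, and for Rpl6 the dim probe rose by 0.53 ± 0.20 while the other 3 fell, the brightest by 0.38 ± 0.07. With OVX the gene with both directions was Rps3, a small subunit protein at the mRNA entry channel, with a dim probe at -0.23 ± 0.07 and a brighter one at 0.27 ± 0.09, while its brightest was not called. Probes placed on another chromosome than their gene did not stand apart, with a median CUMS effect of -0.24 (25 probes) against -0.21 (153 probes).

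In the mPFC, most ribosomal protein transcripts were higher with OVX by small amounts. Of the 187 probes 111 rose and 5 fell, while 19.1% of all 28358 detected probes rose and 11.7% fell. By the brightest probe, 55 of 84 genes rose and 3 fell. The median effect was 0.12 against 0.04 over all probes. Quantile normalization gave 68 rising and 15 falling probes and the spike-in scaling 0 and 18, and with the slide as a block none was called by limma, with 10 at an unadjusted p under 0.05. Relative to the family median, 65 probes rose and 14 fell, against 5.65% and 15.5%. Of 7 microglia markers 6 rose with OVX, with a summed level from 5.89 to 6.03 in control, from 5.89 to 6.25 in CUMS, from 6.07 to 6.27 in OVX and from 6.02 to 6.32 in OVX+CUMS mice, and their part in the rise was not tested.

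Rps15 rose on both probes. The levels of its brighter probe in the mPFC were 5.74, 5.75 and 5.85 in control mice, 5.80, 5.94 and 6.02 with CUMS, 5.99, 6.07 and 6.17 with OVX and 6.04, 6.11 and 6.35 with OVX+CUMS. Every OVX mouse lay above every control mouse. The OVX effect was 0.26 ± 0.04 (adjusted p = 4.3e-05, limma). The CUMS mice, which spanned the slides, lay between 5.80 and 5.87 on slide 1 and between 5.92 and 6.02 on slide 2. Rpl19, whose long helix contacts the small subunit, had levels of 6.02, 6.21 and 6.40 in control mice, 6.27, 6.49 and 6.54 with CUMS, 6.50, 6.60 and 6.65 with OVX and 6.50, 6.56 and 6.60 with OVX+CUMS and an effect of 0.26 ± 0.04 (adjusted p = 0.00012, limma). Rps2, a small subunit protein at the mRNA entry channel, rose by 0.25 ± 0.04 (adjusted p = 0.00027, limma). These probes of Rps15, Rpl19 and Rps2 were among 39 of the 187 member probes that were lower on every array of slide 1 than on all other mPFC arrays, and 3 were higher, against 3.26% and 5.98% of all detected probes. Slide 1 held all control mice, so that the OVX effect of these probes and the slide cannot be told apart. Rpl23a, which lies beside the exit of the tunnel, gave 0.19 ± 0.04 in the mPFC and 0.07 ± 0.05 in blood with OVX.

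The 3 genes that fell were Rps21, Rpl4 and Rpl7a. Rps21 levels were 6.20, 6.25 and 6.32 in control mice, 5.47, 5.65 and 6.28 with CUMS, 5.47, 5.68 and 5.73 with OVX and 5.46, 5.70 and 5.79 with OVX+CUMS, and the effect was -0.38 ± 0.07 (adjusted p = 0.0006, limma). The 2 CUMS mice on slide 1 lay with the control mice, and the 4 CUMS mice on slide 2 lay with the ovariectomized mice, as the ranges of 6.15 to 6.32 on slide 1, 5.47 to 5.70 on slide 2 and 5.46 to 5.79 on slide 3 show. Rpl4, which lines the exit tunnel, gave -0.12 ± 0.04 and Rpl7a -0.12 ± 0.03 by the brightest probe. Among CUMS mice alone, slide 2 minus slide 1 was -0.26 for Rpl4 and -0.14 for this Rpl7a probe. With the slide as a block the Rpl4 effect turned to 0.047. Rps21, Rpl4 and probe 2 of Rpl7a were higher on every array of slide 1 than on all other mPFC arrays. The 4 detected Rpl7a probes were called in both directions, with -0.25 ± 0.05 for probe 2 of the sequences above and 0.13 ± 0.04 for the dimmest probe, and Rpl39, another tunnel protein, gave 0.15 ± 0.03 on its brighter probe and -0.18 ± 0.04 on a dim one.

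The OVX effect of a member probe in the mPFC was related to the GC content of the probe. Spearman's rho was 0.64 over the 187 probes, against 0.18 over all detected probes. Of 54 member probes with a GC content below 40%, 12 rose and 5 fell (median 0.03), of 97 between 40% and 50%, 66 rose (median 0.12), and of 36 with 50% or more, 33 rose (median 0.18). The same measure was taken for other comparisons. The CUMS effect, of which few were called, had a rho of 0.61, against 0.09 over all detected probes. Among the CUMS mice alone, the 4 on slide 2 exceeded the 2 on slide 1 by a median of 0.10 over the genes, with a rho of 0.50 against GC content. Between OVX and CUMS mice of the same slide 2, where surgery and stress both differed, the median was -0.04 and rho -0.05. The parts of surgery and slide in the relation of the OVX effect to GC content cannot be told apart. In blood the OVX effect of the members had a rho of -0.11 against GC content.

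**Figure D4:**
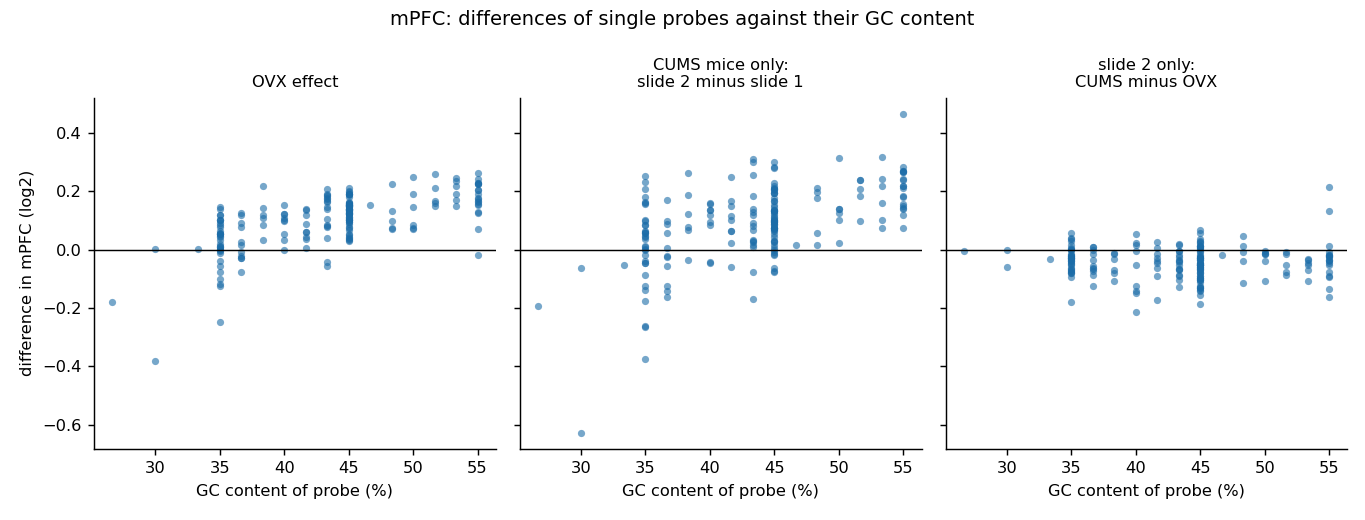
Difference in log2 level in the mPFC of each of the 187 member probes against its GC content in percent, for the OVX effect (left), for the CUMS mice on slide 2 against those on slide 1 (middle) and for CUMS against OVX mice within slide 2 (right). The left and middle panels slope upward (Spearman's rho 0.64 and 0.50) and the right panel is flat (-0.05).

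CUMS changed little in the mPFC. A single member probe rose, against 2.33% of all detected probes higher and 1.86% lower. It belonged to Rpl29, a heparin-binding large subunit protein, with levels of 6.998, 7.06 and 7.14 in control mice, 7.07, 7.30 and 7.33 with CUMS, 7.28, 7.32 and 7.39 with OVX and 7.33, 7.43 and 7.53 with OVX+CUMS and an effect of 0.14 ± 0.03 (adjusted p = 0.0284, limma). This Rpl29 probe was lower on every array of slide 1, which held all control mice, than on all other mPFC arrays. Among CUMS mice alone it was higher by 0.22 on slide 2 than on slide 1. Between CUMS and OVX mice within slide 2 the difference was -0.008. With the slide as a block, CUMS called 0 member probes in the mPFC. Quantile normalization called 0 higher and 3 lower, and the spike-in scaling 0 higher and 34 lower. Relative to the family 5 probes rose and none fell, against 1.79% and 0.617%. Within slides the median CUMS difference over the genes was -0.01 on slide 1 and -0.01 on slide 3. The interaction was called for probe 2 of Rpl7a (0.34 ± 0.09) and for a probe of Rpsa (-0.24 ± 0.07). Of all detected probes 3.37% were called higher and 1.12% lower. On every array of slide 1 this Rpl7a probe lay above, and this Rpsa probe below, all other mPFC arrays. With the slide as a block the interaction was called for 0 member probes.

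The effects were then compared between the tissues of the same mice, in a limma fit of all 48 arrays with the mouse as a random block over the 17544 probes detected in both. The CUMS effect was lower in blood than in the mPFC for 123 of 179 member probes and higher for 2, against 33.8% and 17.6% of all probes. Rpl3 showed the widest gap among the named genes, at -0.56. The OVX effect was lower in blood for 51 and higher for 8, against 19.4% and 19.9%. Rps15 differed most, by -0.89, and Rps25 (0.29) and Rpl4 (0.30) differed in the other direction. The balance of these OVX calls turned with the scaling, to 19 lower and 46 higher with the normexp correction, 9 and 77 with quantile normalization and 1 and 125 with the spike-in probes, and with the slide as a block none was called by limma, with 12 at an unadjusted p under 0.05.

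Within the same mouse, most ribosomal protein genes had a lower level in the mPFC than in blood, each relative to the P75 of its own array. This held for 74 of 83 genes, with a median of -0.78 against -0.43 over all probes detected in both tissues. The exceptions included several paralogs. Rps4y2, which RefSeq now names Rps4l, was higher in the mPFC by 3.34, Rpl22l1 by 1.72, Rps27l by 1.67 and Rpl36al by 0.59, each in 24 of 24 mice, and Rpl3 (0.77) and Rpl14 (0.52) were also higher in all 24. The paralogs Rpl3l, known from muscle, and Rpl10l and Rpl39l, known from testis, did not pass the detection filter in either tissue. Rpl3l was well above background on 1 of 24 blood and 10 of 24 mPFC arrays, Rpl39l on 0 and 5, and the Rpl10l probes on 2 and 3 blood arrays and on 1 and 0 mPFC arrays. Rpl7l1, a ribosome assembly factor, passed in the mPFC and was well above background on 23 of 24 blood arrays.

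The ratio of a paralog to its partner was followed on each array, set to 0 at the mean of the blood control mice, since the absolute ratio depends on the probes. Rpl22l1 over Rpl22 had medians between -0.15 and 0.09 in the 4 blood groups and between 2.81 and 2.96 in the mPFC groups, and the groups of each tissue overlapped. Both partners fell in blood with CUMS, Rpl22 by 0.41 ± 0.09 on the log2 scale. Rpl36al over Rpl36a reached lower in CUMS mice, with lowest, median and highest values of -0.57, -0.40 and -0.02 against -0.11, -0.02 and 0.16 in control mice. The OVX mice gave -0.14, -0.01 and 0.11 and the OVX+CUMS mice -0.16, -0.09 and 0.04. The CUMS and control mice overlapped, with the highest CUMS mouse reaching the control median, and the OVX+CUMS and OVX mice overlapped as well. In the mPFC this ratio ranged from 1.17 to 1.28 in control mice, and the OVX mice (1.04 to 1.08) and OVX+CUMS mice (0.93 to 1.06) did not overlap with them. The CUMS mice fell between 1.17 and 1.21 on slide 1 and between 1.06 and 1.10 on slide 2, so that this ratio followed the slide as well. For Rps27l over Rps27 and Rps4y2 over Rps4x the groups of each tissue overlapped.

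**Figure D5:**
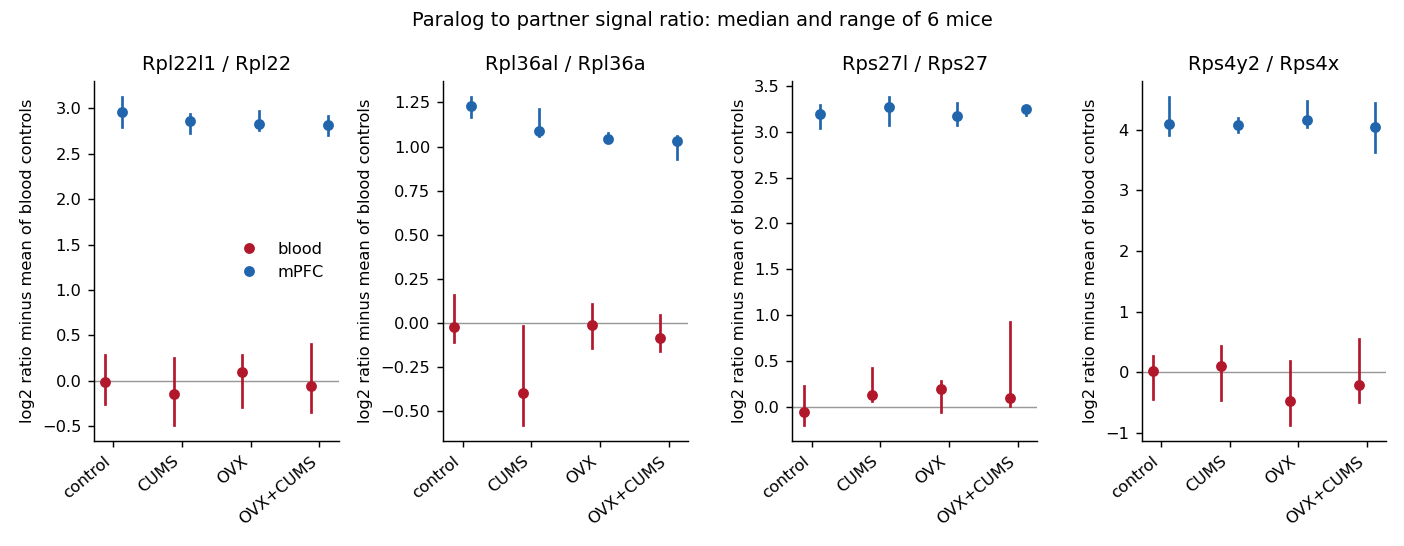
Log2 ratio of a paralog to its partner gene by group in blood (red) and mPFC (blue), minus the mean of the blood control mice. Points are medians and lines the range of 6 mice. Each ratio is higher in the mPFC, and for Rpl36al over Rpl36a the CUMS mice reach lower in blood (-0.57) than any other group.

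Other translation genes and ribosome assembly genes were counted by the brightest probe of each gene. Of 19 other translation genes 12 fell with CUMS (median -0.24), among them the elongation factor Eef1a1 (-0.24), and 1 rose, the poly(A)-binding protein Pabpc1 (0.52). Of 20 ribosome assembly genes 16 fell and none rose (median -0.32), among them fibrillarin, Fbl, the methyltransferase of ribosomal RNA (-0.45). With OVX 10 of the assembly genes rose and none fell (median 0.23), among them nucleolin, Ncl (0.41), and 5 of the other translation genes rose and 3 fell, with Pabpc1 at -0.44. In the mPFC with OVX, 9 of the 19 translation genes rose and none fell, while 2 assembly genes rose and 4 fell. For comparison, 29.4% of all detected probes fell and 19.1% rose with CUMS in blood, 27.4% rose and 27.7% fell with OVX in blood, and 19.1% rose and 11.7% fell with OVX in the mPFC. The medians over all detected probes were -0.03 for CUMS and 0.04 for OVX in blood and 0.04 for OVX in the mPFC.

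The starts of the genes were examined for the pyrimidine tract. RefSeq (GRCm38.p6) start regions matched 62 member genes, and within 5 bases of the annotated start 28 of them (45.2%) held a C followed by at least 4 bases that were each C or T on the strand of the gene, against 21.2% of 27025 genes. At the annotated start itself the shares were 21.0% and 3.01%. A match describes the letters only. Shown are 30 bases, 15 on either side of the start, of a gene that fell with OVX in blood (Rpl28, chr7:4792950-4792979, plus strand), a stalk gene (Rplp2, chr7:141447636-141447665, plus strand) and the pair Rps27 (chr3:90213634-90213663, minus strand) and Rps27l (chr9:66946071-66946100, plus strand), with the tract in capitals.
Rpl28: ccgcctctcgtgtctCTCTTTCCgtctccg
Rplp2: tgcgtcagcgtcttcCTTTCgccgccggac
Rps27: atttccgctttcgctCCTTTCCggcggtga
Rps27l: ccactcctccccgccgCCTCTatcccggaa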

How the data were processed

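RNA of blood and mPFC was hybridized to one-colour Agilent arrays, and the authors deposited, per the file headers, the spot intensities of Feature Extraction 10.7.3.1 (gProcessedSignal) and a table of log2 values that the authors normalized in GeneSpring to the 75th percentile. From the intensities, log2 signal minus the 75th percentile of each array was computed, and spots of a probe were averaged. Apart from a constant per array, 100% of these values of probes with 1 spot were within 0.001 of the deposited table. Probes well above background on all arrays of a tissue with a signal over 50 in at least 2 arrays were tested. limma 3.58.1 (R 4.3.3) fitted 4 group means per tissue, with main effects and interaction as contrasts and Benjamini-Hochberg adjustment over all tested probes at 0.05. For the comparison of tissues the mouse entered as a random effect (duplicateCorrelation, 0.059). Tables were summarised in Python 3.11.15 with pandas 2.3.3. The fit was tested on simulated data with known OVX changes of 0.7 and 1.2, independent noise and no slide effect. It recovered 87% and 98% of these in blood and 95% and 100% in the mPFC. False calls made up 6.09% of the calls in blood and 3.94% in the mPFC. Smaller changes and slide effects were not simulated. Named were the 3 genes with the largest called rise and fall by brightest probe for each effect and tissue, also relative to the family. Also named were the paralogs and their partners, the stalk and 5S particle genes, Rpsa, and genes with probes called in opposite directions. Rps29, Rps2 and Rpl23a were named because the study measured their human counterparts by RT-qPCR in human blood, RPS29 as the reference gene. Members and lists were chosen with earlier results of these data known. Replicate numbers did not pair mice between groups. Alternatives covered background correction (normexp, offset 50), normalization, filter, slide, replicate number and each array left out. The number of arrays limits the precision.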

Additional observations from a re-analysis of the deposited data

Results flagged for a closer look

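Single arrays that lay far from the other 5 mice of their group were looked for in 300 groups of 6 mice, by the gap to the nearest mouse as a share of the range, and 22 groups held such an array, while chance alone flags about 1 in 20 groups. In the mPFC, OVX+CUMS replicate 6 was highest for Rpl14 (7.93), Rpl21 (6.00), Rpl22p (4.23), Rpl23a (6.25) and Rps15 (6.35), and OVX replicate 3 was lowest for Rpl19 (6.50), Rpl30 (5.95), Rpl5 (4.98) and Rps3 (5.36). Control replicate 3 was lowest for Rpl30 (5.86) and Rps3 (5.39), control replicate 2 for Rpl23a (5.54) and control replicate 1 for Rpl41 (7.63), and CUMS replicate 1 was lowest for Rpl22l1 (5.69) and Rpl6 (7.07). In blood, control replicate 2 was highest for Rplp0 (9.73) and Rps15 (9.47) and lowest for Rps27 (8.56), and CUMS replicate 2 was highest for Rps15 (9.91). OVX replicate 2 was lowest for Rpl28 (7.76), control replicate 5 was lowest for Rpl7a (7.14) and OVX+CUMS replicate 5 was highest for Rps4y2 (-0.91).

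The effects of both treatments differed between the tissues by a test of the difference itself (limma over both tissues). The OVX effect differed for 59 member probes. Among the named genes the difference, blood minus mPFC on the log2 scale, was -0.89 for Rps15, -0.66 for Rpl28, -0.55 for Rpl41, -0.51 for Rps29, -0.47 for Rps2, -0.46 for Rpl39, -0.42 for Rplp0, -0.33 for Rpl10, -0.31 for Rplp1, -0.29 for Rplp2 and -0.20 for Rpl29. It was 0.29 for Rps25 and 0.30 for Rpl4. With the slide as a block the difference was called for 0 member probes.

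The CUMS effect differed between the tissues for 125 member probes, and it was lower in blood for all 24 named genes that passed. The difference was -0.56 for Rpl3, -0.48 for Rpl22l1, -0.47 for Rpl18, -0.45 for Rpl22, -0.41 for Rpl14, -0.39 for Rpl11 and Rps4x, -0.38 for Rpl22p, -0.36 for Rpl5, Rpl6 and Rpl36al, -0.34 for Rpl29 and Rps27, -0.32 for Rpl30 and Rps25, -0.29 for Rps27l, -0.26 for Rps3 and Rpsa, -0.21 for Rpl36a and Rps2, -0.16 for Rpl21, -0.14 for Rpl10 and Rpl23a and -0.13 for Rplp1.

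In blood, by the interaction, the CUMS effect differed between ovariectomized and sham mice for Rps21 (1.15) and probe 2 of Rpl7a (0.75). Both were lowest on slide 2. In the mPFC it differed for probe 2 of Rpl7a (0.34) and for a probe of Rpsa (-0.24). On every array of slide 1 the former lay above, and the latter below, all other mPFC arrays. With the slide as a block the interaction was called for 0 member probes in either tissue.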

How the results depend on the processing

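Of 1088 values of 120 named gene results under other processing, 851 kept direction and call, 207 kept the direction only and 30 turned, and of 2880 values with 1 array left out 2614 kept both, 266 lost the call and none turned. With normexp, 114 member probes were called for OVX in blood, 7 for the interaction and 20 for OVX against sister probes. In the mPFC it called 4 for CUMS, 6 for the interaction and 2 for CUMS relative to the family. Quantile normalization called 103 for OVX in blood, and in the mPFC 3 for CUMS, 7 for the interaction and 15 for CUMS relative to the family. The spike-in shift called 121 for OVX and 0 for the interaction in blood, 18, 34 and 0 for OVX, CUMS and interaction in the mPFC, and 126 for OVX between tissues. Without the filter 50, 9 and 4 were called in blood for OVX relative to the family and for OVX and CUMS against sister probes, 50 in the mPFC for OVX relative to the family, and 0 for both interactions, mPFC CUMS and mPFC CUMS relative to the family. Requiring detection on all 48 arrays gave 4, 5 and 9 for mPFC CUMS, interaction and CUMS relative to the family. Without moderation these were 3 for CUMS and 21 relative to the family, and 0 for the blood interaction. With the slide as a block 0 were called for OVX and the interaction in either tissue, OVX relative to the family, OVX against sister probes, OVX between tissues and both mPFC CUMS results, and 8 for CUMS against sister probes. Counting 1 probe per gene gave 22 and 35 for blood OVX and 54 and 25 for blood CUMS, as such and relative to the family, and 58 and 35 for mPFC OVX and 2 for mPFC CUMS relative to the family. The cause of these changes was not tested, other than that fewer probes are counted in the last setting.

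Same-numbered arrays did not deviate together (r from -0.51 to 0.49 over 36 pairs in blood and from -0.23 to 0.39 in the mPFC, 7 of 24 arrays in each closest to their own number), so that the numbers only name the mice. With the replicate block 49 probes were called for OVX and 110 for CUMS in blood and 120 for OVX in the mPFC, 0 for the blood interaction and 2 for mPFC CUMS.

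Leaving out 1 array at a time gave 48 to 82 called probes for OVX, 108 to 128 for CUMS and 0 to 11 for the interaction in blood, 71 to 86 and 37 to 56 for OVX and CUMS relative to the family, and 32 to 45 and 10 to 20 against sister probes, with 20 reached without CUMS replicate 1. In the mPFC it gave 103 to 123 for OVX, 0 to 17 for CUMS, 0 to 16 for the interaction, and 62 to 81 and 1 to 27 relative to the family. Between tissues it gave 52 to 72 for OVX and 119 to 132 for CUMS. In the mPFC the count moved by over 1.5 times without any 1 of 9 of the 24 arrays for CUMS, of 18 for CUMS relative to the family and of 21 for the interaction, and in blood without any 1 of 23 for the interaction.

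For OVX in blood, Rpl10 (0.069) and Rplp1 (0.010) turned with normexp, and relative to the family Rpl19 (-0.0035). Quantile normalization turned Rpl10 (0.083), Rplp0 (0.073), Rplp1 (0.094) and Rplp2 (0.10), and the spike-in shift Rpl10 (0.16), Rplp0 (0.056), Rplp1 (0.21), Rplp2 (0.13), Rps2 (0.13) and Rpl39 (0.037), and Rpl41 for CUMS (-0.040). The slide block turned Rps4x (-0.054) and the Rps21 interaction (-0.0080). In the mPFC for OVX the spike-in shift turned Rps27l (-0.017), Rpsa (-0.046), Rpl36a (-0.025), Rpl41 (-0.0070), Rplp0 (-0.011), Rps25 (-0.034) and Rps27 (-0.018). The slide block turned Rps27l (-0.032), Rpl4 (0.047), Rpl36a (-0.010) and Rps25 (-0.039), and relative to the family Rpl4 (0.030) and Rps2 (-0.0021), and normexp turned Rpl28 relative to the family (-0.016). The dimmer blood arrays limit what could be called for dim probes there, and surgery lies across slides.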
